A study of Mus musculus with 2 samples.

Results

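The genes described here encode the proteins of the cytosolic ribosome. They were taken by symbol (Rpl or Rps followed by a number, with Rpsa, Rplp0, Rplp1 and Rplp2), without Rps6k kinases and without symbols that carry the pseudogene mark "-ps". A gene also needed at least 1000 UMIs (unique molecular identifiers, each standing for 1 captured RNA molecule) over both libraries. Of 87 symbols 83 passed, out of 31253 genes in the files. The 4 that did not pass were Rpl3l with 196 UMIs, Rpl39l with 89, Rps23rg1 with 2 and Rpl10l with 1. The symbol rule also caught 2 genes whose products are not structural ribosomal proteins, Rps19bp1, which encodes a protein that binds RPS19, and Rpl7l1, a relative of Rpl7 that acts in ribosome assembly. Rps27rt is a retrotransposed copy of Rps27.

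As background, a cytosolic ribosome joins a small subunit, which reads the mRNA, and a large subunit, which forms the peptide bond and holds the exit tunnel of the new chain. Many mRNAs of ribosomal proteins begin with a C followed by a run of pyrimidines, the 5′ terminal oligopyrimidine tract (5′ TOP), through which mTORC1 and LARP1 control their translation. In the thymus, double-negative (DN) cells that pass the pre-T cell receptor checkpoint grow and divide as blasts, then become small resting double-positive (DP) cells, and grow again after positive selection.

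The study profiled mouse thymocytes by droplet RNA sequencing (10x Genomics 3′ kit, version 3.1), which counts each captured molecule near its 3′ end. There was 1 library from WT mice and 1 from SETDBf/fCD4-Cre mice (cKO), and thymocytes of both were enriched with anti-CD25 beads. CD25 is the IL-2 receptor chain encoded by Il2ra, found on DN cells and on regulatory T cells. Setdb1 and Setdb2 both belong to the histone H3K9 methyltransferase family, and which of them is floxed cannot be read from the label. The number, age and sex of the animals and the Cre status of the WT mice are not given in the sources used here. As background, the CD4-Cre transgene becomes active in T-lineage cells as they leave the DN stage. With 1 library per genotype no difference between genotypes can be tested. Intervals are exact binomial 95% intervals and cover counting error only, not differences between mice, bead enrichments or captures.

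After filtering, 6989 WT and 7372 cKO cells were kept, with medians of 7700 and 4653 UMIs. The number of barcode sequences found in both libraries was 16. Setdb1 stood at 32.6 UMIs per 1000000 (CPM) in WT and 29.7 in cKO, and Setdb2 at 6.41 and 6.73, and a 3′ count outside a floxed exon does not check a deletion. Stages were gates on marker RNAs that hold no ribosomal gene, and they took in 83% of WT and 82.4% of cKO cells. The 9 stages with at least 100 cells in each library are early DN (Kit or Cpa3), DN3 (Ptcra with Il2ra or Myl10), cycling Cd8-, cycling Cd8+, DP Trac-, DP Trac+, agonist-signalled, mature conventional and Foxp3+. Trac is the constant gene of the T cell receptor alpha chain. Markers of other cells were summed in each stage. The 8 B markers came to between 51.4 and 422 CPM, with Pax5 at 0 in each stage and library, the 7 myeloid markers to between 139 and 866, the 5 erythroid ones to at most 128 and the 7 stromal and epithelial ones to at most 231. Their part in the results was not tested.

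RefSeq start sites (GRCm38.p6) were found for 63 of the 83 genes, and windows of 10 bases before to 20 after the annotated start are printed for 10 of them, because later paragraphs turn on their values. Rps27 lies at chr3:90213629-90213658 (minus strand), its copy Rps27rt at chr9:114982720-114982749 (minus) and the paralog Rps27l at chr9:66946076-66946105 (plus). Rpl14 lies at chr9:120571507-120571536 (plus), Rpl36a at chrX:134585644-134585673 (plus) and Rpl22l1 at chr3:28805498-28805527 (plus). Rps28 lies at chr17:33824543-33824572 (minus), Rpl38 at chr11:114668570-114668599 (plus), Rpl39 at chrX:37085203-37085232 (minus) and Rpl13a at chr7:45128726-45128755 (minus). Capitals mark the longest run of C and T in the window, read 5′ to 3′ on the gene's strand, and the first of them where runs are equally long, as in Rps27rt.
Rps27: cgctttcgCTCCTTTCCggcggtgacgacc
Rps27rt: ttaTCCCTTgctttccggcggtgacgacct
Rps27l: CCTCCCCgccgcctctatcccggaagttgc
Rpl14: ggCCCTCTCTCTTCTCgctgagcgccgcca
Rpl36a: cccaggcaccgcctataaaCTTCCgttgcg
Rpl22l1: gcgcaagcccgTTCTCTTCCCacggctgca
Rps28: cgcgtgcggTCTCgcgagagcgaaagtgag
Rpl38: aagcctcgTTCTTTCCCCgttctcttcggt
Rpl39: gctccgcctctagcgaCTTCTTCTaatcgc
Rpl13a: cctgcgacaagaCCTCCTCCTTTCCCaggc

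Rps27 and its copy shared a stretch of 19 bases in these windows, while the window of Rps27l had a run of pyrimidines in another place. A C followed by 4 pyrimidines exactly at the annotated start was found in 14 of the 63 genes (22.2%), against 3.01% of 27025 genes in the RefSeq table. A pyrimidine run of at least 8 bases lay in the window of 24 of the 63 (38.1%), against 13% of all genes. The motif CCGGAAG, on either strand of the 300 bases around the start, was present in 25 of the 63 (39.7%), against 9.93% of all genes. A match describes these letters and shows no site of binding or control.

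Ribosomal protein genes gave 28.7% of all UMIs of kept WT cells and 29.2% of kept cKO cells, and the stages differed more than the libraries did. In DN3 cells, which rest before the pre-T cell receptor checkpoint or have just passed it, they took 30.6% of the summed UMIs in WT (1359 cells) and 32.2% in cKO (963 cells). Early DN cells stood at 29.4% and 31.5%, and cycling Cd8- cells, the blasts, at 29.3% and 30.7%. Blasts that had switched on Cd8 had 27.6% and 27.3%. The lowest shares were in resting DP cells, with 18% and 17.7% in DP Trac- and 16.4% and 17% in DP Trac+ (1408 and 2170 cells). After selection the shares were high again: agonist-signalled cells had 28.3% and 28.9%, mature conventional cells 30.2% and 30.4%, and Foxp3+ cells, the regulatory T lineage, 31.2% and 31.7%. In each library both DP gates lay below every other of the 9 stages.

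**Figure D1:**
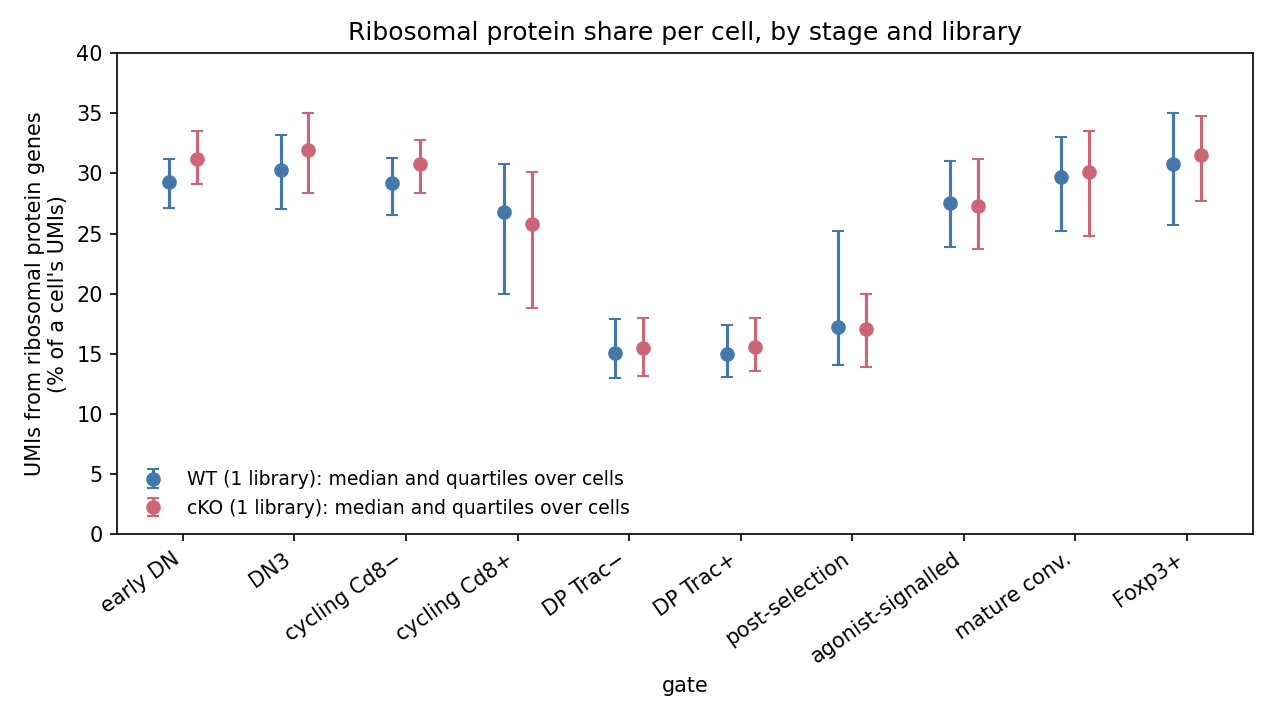
Share of each cell's UMIs that come from the 83 ribosomal protein genes (y axis, %), by gate (x axis) and library; points are medians over cells and bars run from the lower to the upper quartile. The DP gates have medians of 15 to 15.6% in both libraries, and the Foxp3+ gate 30.8% in WT and 31.5% in cKO.

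The share of DP Trac+ cells was 0.536 times that of DN3 cells in WT and 0.528 times in cKO. Both parts of the ratio moved. The median DP Trac+ cell held 370 ribosomal protein UMIs in WT and 353 in cKO, against 2522 and 2641 in the median DN3 cell, which is 6.82 and 7.48 times fewer. UMIs from all other genes were 2.74 and 2.82 times fewer. From DP Trac+ to Foxp3+ cells the ribosomal protein UMIs were 4.69 and 4.92 times more and the other UMIs 1.84 and 1.85 times more. The blasts held the most of the 9 stages, with a median of 7660 ribosomal protein UMIs per cycling Cd8- cell in WT and 7397 in cKO. UMIs per cell depend on capture as well as on the RNA a cell holds, and fewer transcripts per cell cannot be told apart from poorer capture.

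**Figure D2:**
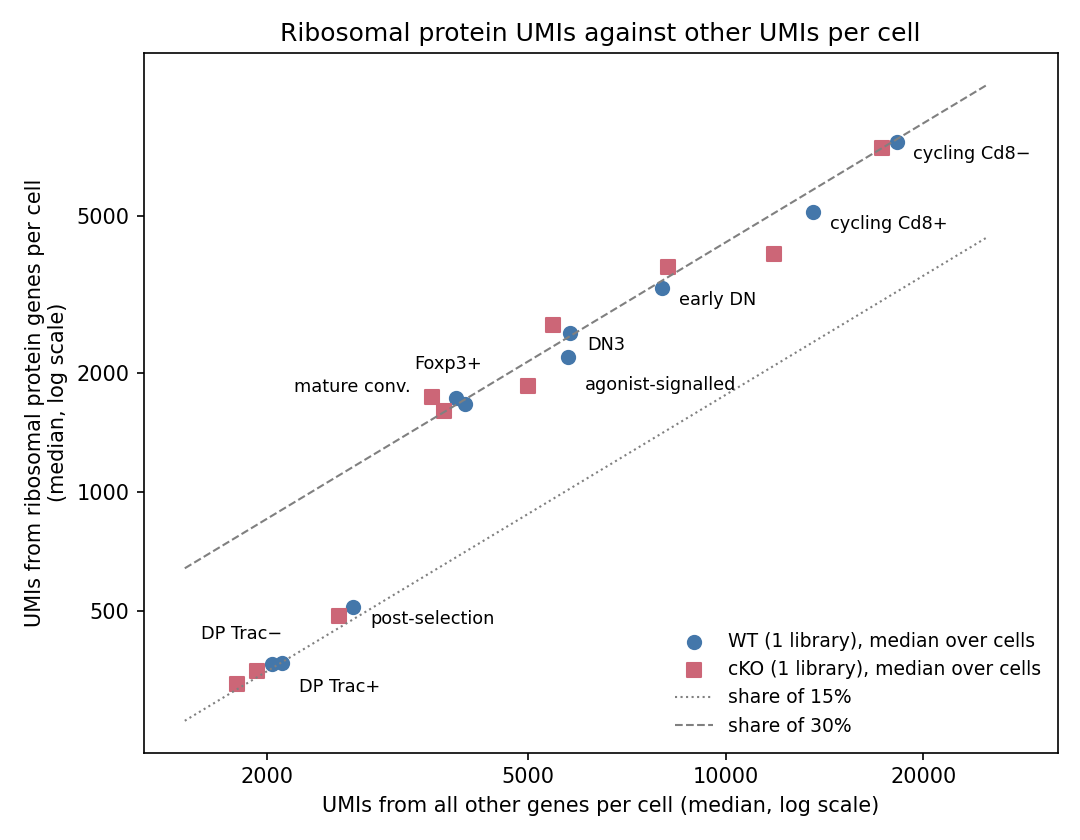
Median UMIs per cell from ribosomal protein genes (y axis, log scale) against UMIs from all other genes (x axis, log scale), 1 point per gate and library; lines mark shares of 15% and 30%. DP and post-selection gates lie on the lower line, and the DN, cycling Cd8-, mature and Foxp3+ gates near the upper one.

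Depth moved with the share. DP Trac+ cells held a median of 2492 UMIs in WT and 2282 in cKO, while DN3 cells held 8322 and 8018. Within DP Trac+ cells of the WT library the median share was 13.3% at 1000 to 2000 UMIs, 15.4% at 2000 to 4000 and 18.2% at 4000 to 8000. In cKO it was 14.4%, 16.1% and 18.2% in these bands. The 22 cKO DP Trac+ cells of 8000 or more UMIs had a median of 28.4%, nearer to the 33.5% of cKO DN3 cells of that depth. Among cells of 3000 to 6000 UMIs only, DP Trac+ cells had 17.6% in WT and 18.4% in cKO, and DN3 cells 26.2% and 28.5%. The ratio was then 0.671 in WT and 0.647 in cKO. Depth still differed in that window, with medians of 3428 and 3535 UMIs in DP Trac+ against 5434 and 5240 in DN3 cells. Among cells of 4000 to 5000 UMIs (medians of 4378 and 4461 against 4678 and 4582), 52 WT and 65 cKO DP Trac+ cells had 18.8% and 17.9%. The 36 WT and 62 cKO DN3 cells of that depth had 25.3% and 27.6%. The ratio was 0.742 in WT and 0.647 in cKO, nearer to 1 than over all depths and still below it. This narrower window was chosen after the data were seen. Mature conventional cells of 3000 to 6000 UMIs had 28.2% and 28.8%, and Foxp3+ cells 28.9% and 31.1%. The nuclear RNA Malat1 took 4.24% of DP Trac+ UMIs in WT and 3.61% in cKO, against 1.28% and 0.988% in DN3 cells. Mitochondrial genes took 4.65% and 4.88%, against 5.76% and 5.56%. Myl10, which helped to define the DN3 gate, stood at 41.2 and 64.8 CPM in DP Trac+ cells and at 1078 and 1314 in DN3 cells. The part of depth, Malat1 and free RNA in the stage difference was not tested beyond these values.

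Between libraries, the share differed by at most 2.14 percentage points in the 9 stages. The cKO to WT ratio was 1.073 (1.070 to 1.076) in early DN, 1.053 (1.051 to 1.055) in DN3 and 1.048 (1.047 to 1.049) in cycling Cd8- cells. It was 1.037 (1.034 to 1.041) in DP Trac+, 1.024 (1.019 to 1.028) in agonist-signalled, 1.015 (1.012 to 1.019) in Foxp3+ and 1.008 (1.003 to 1.013) in mature conventional cells. Cycling Cd8+ cells had 0.991 (0.989 to 0.994) and DP Trac- cells 0.981 (0.976 to 0.986). Thus 7 of the 9 ratios lay above 1, and the 3 highest were in early DN, DN3 and cycling Cd8- cells. All stages of a library share 1 capture, so a direction repeated across stages is not repeated evidence. Once the 11 genes of coding length under 300 bases, treated below, were left out, 4 of the 9 ratios lay above 1. Those of agonist-signalled (0.998), mature conventional (0.981) and Foxp3+ cells (0.987) then fell below it.

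Among the members, the level over all kept cells ran from 6667 CPM in WT and 6703 in cKO for Rps24, a small subunit protein, to 59.4 and 57.8 for Rps19bp1. Rpl13 (6417 and 6046), Rpl32 (6024 and 6033) and Rpsa (5741 and 5490), the last also known as the laminin receptor precursor, were also among the highest. The lowest besides Rps19bp1 were Rpl7l1 (85.7 and 78.9), Rps27rt (97.2 and 117), Rpl13a (486 and 420) and Rps27l (515 and 497). Counts near the 3′ end do not grow with transcript length, but 36 of the 83 genes shared at least 50% of their 3′ 90-base words with another annotated gene. Reads from such ends can be split or lost, so levels of these genes are uncertain in absolute terms.

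The mix of ribosomal protein mRNAs was then compared along the stages. For this, each gene was expressed per 1000 ribosomal protein UMIs of its stage, which removes the drop common to all. Over the 9 stages the highest value was at least 1.5 times the lowest in both libraries for 19 of 80 genes with enough counts, and at least 2 times for 4 of them, Rps27, Rps27l, Rpl3 and Rps2. The median gene had a ratio of 1.34. On the CPM scale, which keeps the common drop, 77 of the 80 reached 1.5 times, against 87% of the 524 genes with as many counts, and the median ratio was 2 for the members and 2.03 for all. The 444 such genes outside the list, each set against the sum of genes outside the list, had a median ratio of 2.09, and 86.3% reached 1.5 times. Within their own sum the ribosomal protein mRNAs thus varied less over the stages than other genes did within theirs, and the genes below are among the members that varied most.

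A first group was lowest in DP Trac+ cells and highest in a cycling gate, with some resting stages close to the cycling ones. Rps2, a small subunit protein at the mRNA entry channel, took 19.9 per 1000 in WT and 18.5 in cKO cycling Cd8- cells, and 8.31 and 8.33 in DP Trac+ cells. In CPM this was 5844 and 5671 against 1363 and 1418. Agonist-signalled cells took 19.1 and 18.2 per 1000, close to the cycling cells. Rpl3, a large subunit protein that reaches the peptidyl transferase centre, took 11.1 and 10.9 in cycling Cd8- and 5.19 and 5.37 in DP Trac+ cells. Rps2 and Rpl3 took more in cycling Cd8- than in DP Trac+ cells in both libraries. The highest stage of Rpl3 was cycling Cd8+ in WT and cycling Cd8- in cKO. Rpl14, of the large subunit, took 10.2 and 9.26 in cycling Cd8- and 5.11 and 4.8 in DP Trac+ cells. Rpsa stood at 22.2 and 21.2 in cycling Cd8+ and 12 and 11.5 in DP Trac+ cells. Rpl36a, a large subunit protein near the exit site for tRNA, took 7.15 and 7.58 in cycling Cd8- and 3.8 and 3.98 in DP Trac+ cells. It took 6.9 and 7.2 in early DN cells, above the 6.43 and 6.94 of cycling Cd8+ cells.

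Rps27, a small subunit protein with a zinc finger, went the other way. It took 20.1 per 1000 in WT and 23 in cKO DP Trac+ cells, and 8.52 and 10.3 in cycling Cd8- cells. In CPM it stood at 3302 and 3914 in DP Trac+ cells, and at 2497 and 3156 in cycling Cd8- cells. Its CPM level was thus higher in DP than in cycling cells although the ribosomal protein total was much lower. DP cells were not its highest stage in CPM. It stood at 3655 and 4471 in DN3, 4135 and 4853 in mature conventional and 4448 and 5162 in Foxp3+ cells. In agonist-signalled cells it stood at 3207 and 3836. Rpl7 (13.9 and 12.6 per 1000 in DP Trac+ against 8.71 and 8.32 in early DN) had the same direction in share only. In CPM it was lower in DP Trac+ (2284 and 2147) than in early DN cells (2559 and 2623). Rps15a was highest in Foxp3+ cells, at 26.1 and 26.3, and lowest in cycling Cd8+ cells, at 16 and 16.3. Rps14 was highest in DN3 cells, at 22.1 and 20.6, and lowest in agonist-signalled cells, at 13.4 and 12.7. Rpl7, Rps15a and Rps14 were picked after their values had been seen. Rps27 and Rpl14, which moved in opposite directions, both begin with a C and pyrimidines in the windows printed above. Coding length did not order the change of mix between DP Trac+ and cycling Cd8- cells: Spearman's rho over the 83 genes was -0.10 in WT and -0.12 in cKO, as a description across genes, which are not independent replicates.

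**Figure D3:**
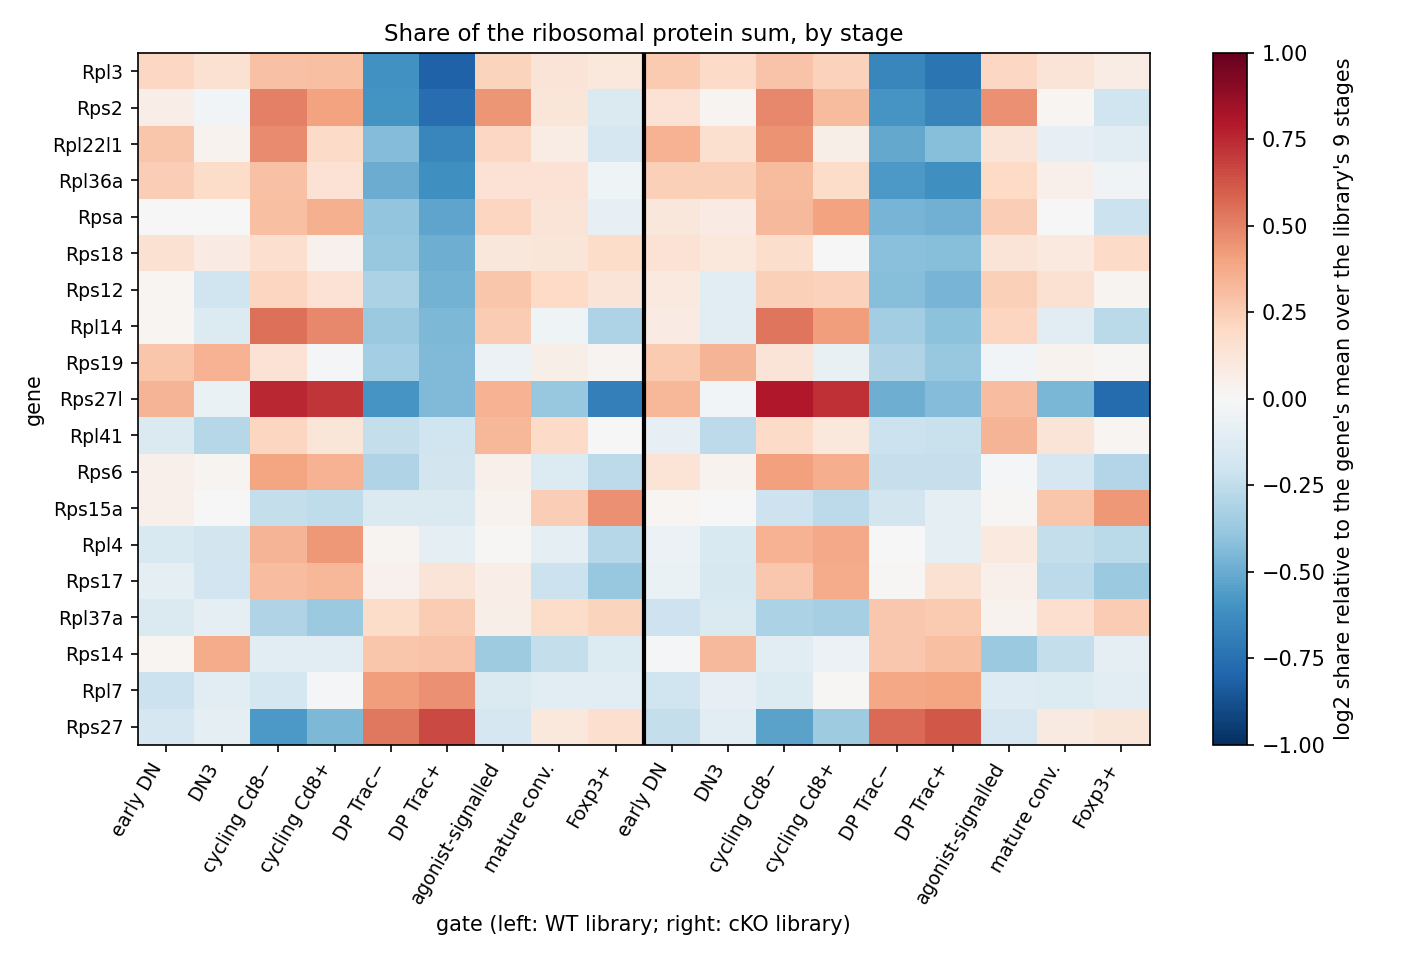
Log2 share of the ribosomal protein sum relative to the gene's own mean over the 9 stages of a library (colour), for the 19 genes with a highest to lowest ratio of at least 1.5 in both libraries; rows are genes, columns gates, WT left and cKO right of the line. Rpl3 and Rps2 at the top are low in DP gates and Rps27 at the bottom is high there, in both libraries.

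Paralogs changed against their partners. Rpl22 is dispensable in many cells but needed for alpha-beta T cell development, and Rpl22l1 is its close relative. Rpl22l1 gave 606 UMIs (598 to 613) per 1000 Rpl22 UMIs in WT cycling Cd8- cells and 570 (563 to 578) in cKO. In DP Trac+ cells it gave 268 (252 to 286) and 310 (295 to 326). The cycling to DP ratio was thus 2.256 in WT and 1.838 in cKO. Foxp3+ cells had 367 and 374. The order cycling Cd8-, then Foxp3+, then DP Trac+ was the same in both libraries. The DN gates were close to cycling Cd8- cells, with 549 and 541 in early DN and 541 and 563 in DN3 cells. In cKO the DN3 interval (549 to 578) overlapped that of cycling Cd8- cells. Cycling Cd8+ cells lay below the DN gates, at 458 and 381.

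Rps27l, a p53 target and relative of Rps27, gave 246 UMIs (243 to 250) per 1000 Rps27 UMIs in WT and 194 (190 to 197) in cKO cycling Cd8- cells. In DP Trac+ cells it gave 45.5 (41.8 to 49.5) and 36.7 (34.2 to 39.4), so the ratio between the stages was 5.411 in WT and 5.271 in cKO. Foxp3+ cells had 54.3 and 41.2. Some other gates without cycling cells lay higher, with 138 and 113 in early DN, 139 and 107 in agonist-signalled and 99.9 and 80.7 in DN3 cells. Both genes moved: Rps27l itself fell from 615 and 611 CPM in cycling Cd8- to 150 and 144 in DP Trac+ cells. The lower ratio in cKO in each of the 9 stages goes with higher Rps27 there, while Rps27l differed between libraries by log2 folds of -0.18 to -0.01. The ratio of Rpl36al to its relative Rpl36a moved the other way. Rpl36al gave 389 and 347 UMIs per 1000 Rpl36a UMIs in cycling Cd8- and 690 and 659 in DP Trac+ cells. Rpl36al itself fell from 814 and 809 CPM to 430 and 447, while Rpl36a fell further, from 2095 and 2328 to 624 and 678. Rps27rt kept near the same ratio to Rps27 throughout, between 30.5 and 38.2 per 1000 in the 9 stages. It shared 89.8% of its 3′ words with Rps27, so its counts may include reads from Rps27. Rpl7l1 gave 37.5 and 33.2 UMIs per 1000 Rpl7 UMIs in cycling Cd8- and 22.2 and 21.9 in DP Trac+ cells.

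**Figure D4:**
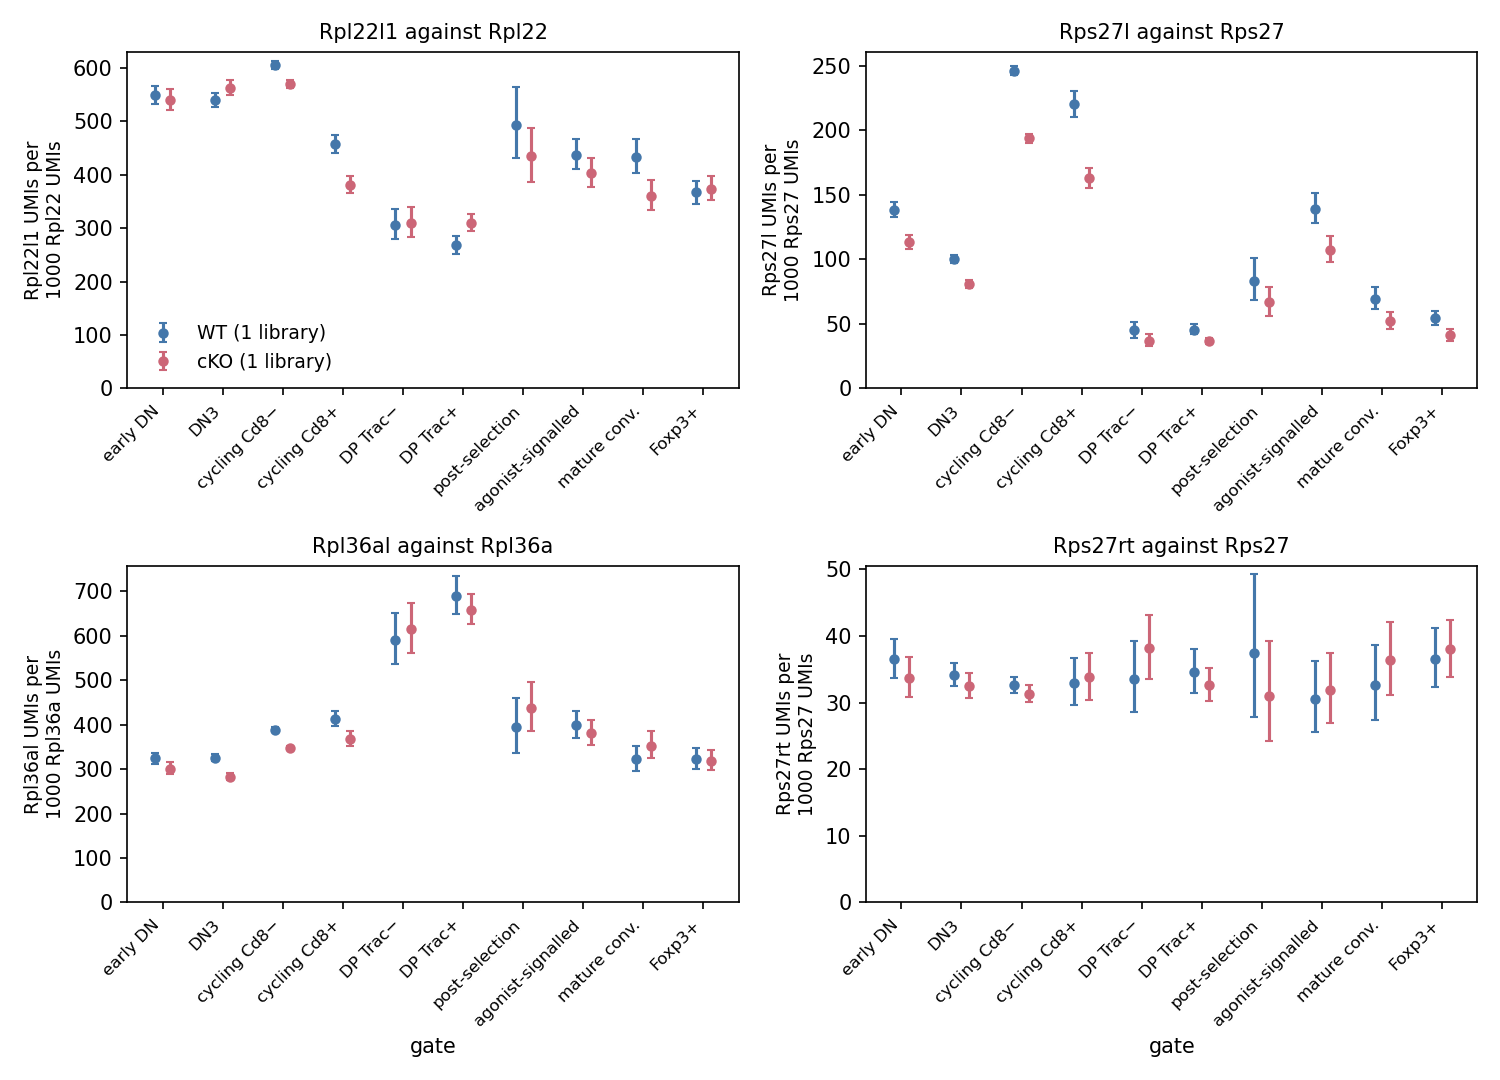
UMIs of 4 paralogs or copies per 1000 UMIs of their partner (y axes, from 0), by gate and library, with exact 95% intervals for counting error. The ratios of Rpl22l1 and Rps27l are highest in cycling Cd8- cells, for Rpl22l1 with the DN gates close to them. That of Rpl36al is highest in DP Trac+ cells. That of Rps27rt stays between 30.5 and 38.2 in the 9 stages of at least 100 cells per library.

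Single genes were next compared between the libraries within each stage, as log2 folds of (CPM + 5), with 25% higher or 20% lower, the same fold in each direction, taken as a size and not as a test. The count of the 83 genes at least 25% higher in cKO was 4 in early DN, where 3.21% of all genes with at least 100 UMIs were, 2 in DN3 (2.27%) and 5 in cycling Cd8- (1.2%). It was 2 in cycling Cd8+ (5.65%), 2 in DP Trac- (7.06%) and 3 in DP Trac+ (3.95%). It was 4 in agonist-signalled (9.13%), 4 in mature conventional, where 82 had enough counts (9.93%), and 3 in Foxp3+ cells (9.38%). Apart from cycling Cd8- and early DN cells, these counts lie near or under the share of all genes. That share takes in every gene with at least 100 UMIs over both libraries. Most members had far more, so members and all genes were not matched on counts here, nor for the lower genes below. The count at least 20% lower was 0 in 8 stages, where 8.34% (early DN), 3.26% (DN3), 1.04% (cycling Cd8-), 6.29% (cycling Cd8+), 6.09% (DP Trac-), 7.58% (agonist-signalled), 9.19% (mature conventional) and 9.44% (Foxp3+) of all genes were lower, and 1 in DP Trac+ (3.18%). Median folds of the 83 ran from -0.06 in DP Trac- to 0.08 in early DN, and those of all genes from -0.05 to 0.01. Few ribosomal protein genes thus differed by this size, and Rps28 and Rps29 did so repeatedly.

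Of the 29 pairs of gene and stage that were higher, Rps29 and Rps28 made up 8 each and Rpl38 4. Rps29, a small subunit protein with a zinc-binding motif, stood at 4819 CPM in WT and 6478 in cKO DN3 cells, and at 3180 and 4093 in DP Trac+ cells. In Foxp3+ cells it stood at 5965 and 7862. Its log2 fold ran from 0.29 to 0.43 over the 9 stages, with a median of 0.39. Rps28, which lines the mRNA exit of the small subunit, stood at 4537 and 5998 in DN3, 1961 and 2570 in DP Trac+ and 4150 and 5351 in Foxp3+ cells. Its fold ran from 0.31 to 0.42. Both were higher in the cKO library in each of the 9 stages.

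Rpl38, a large subunit protein known for its part in the translation of Hox mRNAs, stood at 1496 and 1986 CPM in DP Trac+ cells, with folds from 0.22 to 0.41 over the stages. Rpl39, which lines the exit tunnel, stood at 4440 and 5550 in DN3 cells and had folds from 0.16 to 0.33. Rps27 had folds from 0.21 to 0.34, and Rpl37a, a zinc-finger protein of the large subunit, from 0.21 to 0.28. Rpl41, the smallest of the ribosomal proteins, stood at 4096 and 5272 in early DN cells and had folds from 0.16 to 0.36. These genes encode the smallest proteins of both subunits and share no single site on the ribosome. The start windows of Rps28, Rpl38 and Rpl39 shown above had longest pyrimidine runs of 4, 10 and 8 bases.

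In all, 16 genes were higher in cKO in each of the 9 stages and 7 were lower. Of the 82 members with at least 100 UMIs in every stage these were 19.5% and 8.54%, against 3.37% higher and 3.45% lower among all 2670 such genes. The gap was smaller among genes with many counts: at 1000 or more UMIs in every stage, 15 of 78 members were higher (19.2%) and 5 lower (6.41%). Of the 124 other genes at that level 13 were higher and 11 lower (8.87%). With the ribosomal protein sum as the scale in place of all UMIs, 13 were higher and 25 lower in every stage. Under both scales 13 of the 16 kept their direction, Rps29, Rps28, Rpl38, Rpl39, Rps27, Rps27rt, Rpl37a, Rps21, Rpl36, Rpl41, Rpl37, Rpl35a and Rpl35. Rpl34, Rpl6 and Rpl24 did not. Of the 7, Rpl13a, Rpl5, Rps15, Rpl17 and Rps27l did so, and Rpl18 and Rpl23a did not.

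Rpl13a, a large subunit protein also known for silencing mRNAs in the interferon response of myeloid cells, had the lowest fold of the 83 in early DN, DN3, cycling Cd8-, DP Trac+ and agonist-signalled cells. It stood at 452 and 395 CPM in DN3, 356 and 281 in DP Trac+ and 513 and 453 in Foxp3+ cells, with folds from -0.33 to -0.15. Rpl5, which with Rpl11 and 5S RNA forms the particle that restrains MDM2, stood at 1751 and 1619 in DN3 and 1996 and 1751 in Foxp3+ cells, with folds from -0.19 to -0.08. Its partner Rpl11 had a median fold of 0.00. Rps15, near the decoding site, had folds from -0.21 to -0.02. Rpl23a, at the exit of the tunnel, had folds from -0.16 to -0.01 and Rpl17 from -0.15 to -0.02.

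Some longer members were lower in particular stages. Rpsa had a fold of -0.23 in both mature conventional cells (5699 and 4855 CPM) and Foxp3+ cells (5108 and 4365). It stood at 0.11 in early DN cells (5078 and 5475). Rpl12, of the stalk base, had -0.24 in Foxp3+ cells (3816 and 3223), and Rpl4 had -0.26 in mature conventional cells (1332 and 1114). Rplp0, the stalk protein, had -0.22 in DP Trac- cells (3746 and 3223). In agonist-signalled cells Rps6, the target of S6 kinase, stood at 2084 and 1903 and Rpl14 at 2350 and 2147, folds of -0.13 each. None of these reached 20% lower. Rpl7l1 and Rps19bp1, with few counts, varied most, from -0.15 to 0.33 and from -0.21 to 0.33.

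The fold followed the length of the coding sequence across the 83 genes. The 11 genes under 300 bases had a median of 0.26, with 10 above 0, and the exception was Rps27l at -0.06. The 18 genes of 300 to 400 bases had a median of 0.08, with 17 above 0. The 16 genes of 500 to 700 bases had -0.04, with 1 above 0, and the 15 of 700 to 1300 bases -0.05, with 3 above 0. Across genes Pearson's r with log2 coding length was -0.75 and Spearman's rho -0.74, and within single stages rho ran from -0.69 in cycling Cd8+ to -0.57 in early DN cells. Genes are not independent replicates, and all folds share the same pair of libraries. With GC content rho was -0.14, and with the WT level 0.02.

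**Figure D5:**
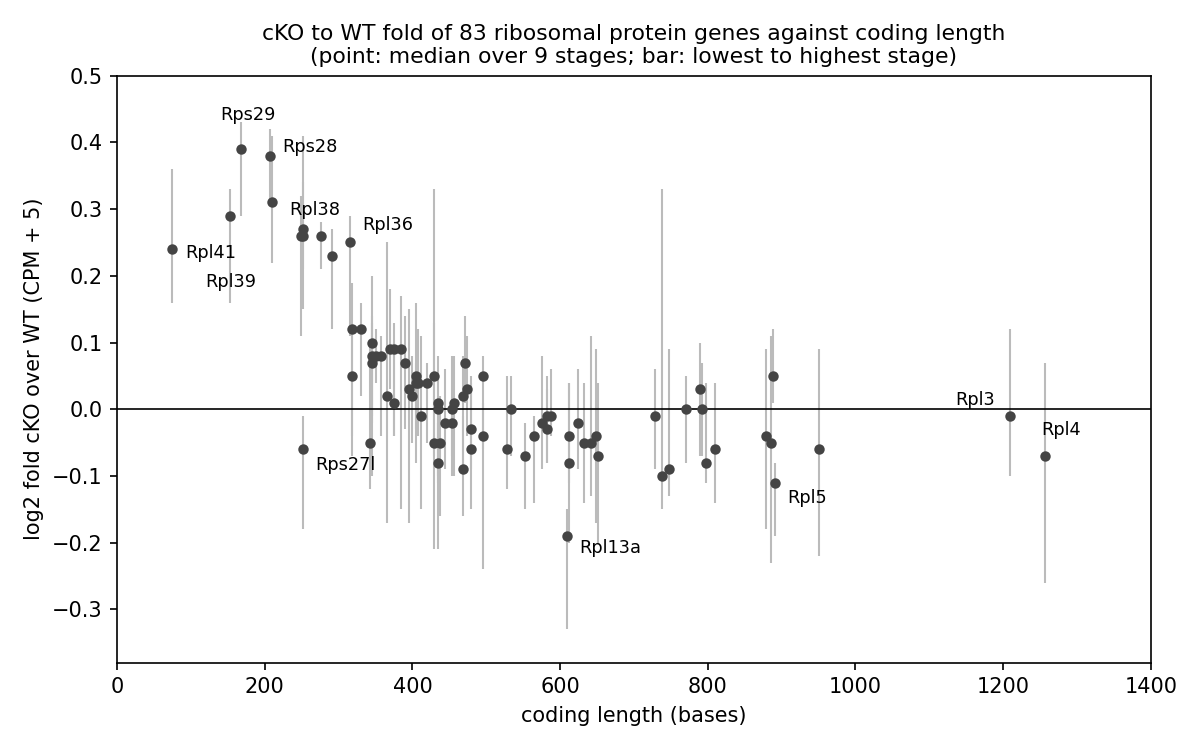
Log2 fold of cKO over WT (y axis) against coding length in bases (x axis) for the 83 genes; points are medians over the 9 stages and bars run from the lowest to the highest stage. Genes under 300 bases other than Rps27l lie between 0.23 and 0.39, and Rpl13a at -0.19 is the lowest point.

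The short genes account for part of the library difference in the share. In DN3 cells the 11 genes under 300 bases took 3.54% of UMIs in WT and 4.41% in cKO, a difference of 0.87 percentage points, and the other 72 genes 27.1% and 27.8%, a difference of 0.76. In Foxp3+ cells the 11 took 4.1% and 4.92%, while the other 72 took 27.1% and 26.7%, a difference of -0.34. Over the 9 stages the 11 genes were higher in cKO by 0.39 to 0.88 points, and the other 72 differed by -0.82 to 1.26 points.

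Other short transcripts were set beside them. By coding length, the measure used for the members, the 100 to 204 genes outside the list under 300 bases had median folds of -0.01 to 0.04 in the 9 stages. In DN3 cells, the lowest of the stages, their median was -0.01, with 46.8% above 0, against 0.30 for the 11 members of that length. In early DN cells, with the highest part above 0, it was 0.03 with 62.3% above 0, against 0.29 for the members. By the length of the whole mRNA the values were higher. Genes outside the list with an mRNA under 500 bases had median folds of 0.06 to 0.13 in the 9 stages, above the median of all genes in each, with 26 to 68 genes per stage. In cycling Cd8- cells 51 of 68 such genes lay above 0, with a median of 0.09, while the 15 ribosomal protein genes of that mRNA length had 0.15. In cycling Cd8+ cells the other genes had 0.11 and the ribosomal protein genes 0.10, and in mature conventional cells both had 0.11. Short coding length thus went with a higher fold in the members and much less in other genes, while a short mRNA went with one in both. The higher level of short ribosomal protein mRNAs was present in DN gates too. Whether it comes from the animals or from the preparation of the libraries cannot be told apart with 1 library per genotype.

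By structure, the subunits kept their balance. Small subunit genes (31, without Rps27l, Rps27rt and Rps19bp1) took 45.2% of ribosomal protein UMIs in WT and 45.6% in cKO DN3 cells, and 44.1% and 44.4% in DP Trac+ cells. Large subunit genes (43, without the stalk and the paralogs) took 49.4% and 49.1%, and 50.6% and 50.4%. The 3 stalk genes Rplp0, Rplp1 and Rplp2, which recruit the elongation factors, took 4.66% and 4.62%, and 4.6% and 4.45%. The pair Rpl5 and Rpl11 took 2.09% and 1.98% in DN3 and 2.54% and 2.36% in DP Trac+ cells. Of the 83, 4 lie on the X chromosome (Rpl10, Rpl36a, Rpl39 and Rps4x), and together they took 4.28% and 4.65% in DN3 and 3.47% and 3.64% in DP Trac+ cells.

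Some ribosome genes lie outside the symbol rule. Fau, which encodes RPS30 fused to a ubiquitin-like protein, stood at 4086 CPM in WT and 4236 in cKO DN3 cells and at 4063 and 4172 in DP Trac+ cells. Rack1, the scaffold on the small subunit head, stood at 2635 and 2614 in DN3 and 1528 and 1472 in DP Trac+ cells. Neither differed between libraries by 25% higher or 20% lower in any of the 9 stages.

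The 22 translation factors and other 5′ TOP mRNAs followed the stages but less steeply than the ribosomal proteins. Together they took 2.69% of UMIs in WT and 2.74% in cKO DN3 cells, and 1.95% and 1.9% in DP Trac+ cells. Eef1a1, the elongation factor that delivers tRNA, stood at 6193 and 6553 CPM in DN3 and 3504 and 3390 in DP Trac+ cells. Tpt1, another 5′ TOP mRNA, did not go down, with 6627 and 6557 in DN3 and 6803 and 6637 in DP Trac+ cells. Between libraries none of the 22 differed by that size in 7 stages. In each of cycling Cd8+ and DP Trac- cells 1 was at least 20% lower, where 6.29% and 6.09% of all genes were.

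Ribosome biogenesis factors were lower in the cKO library in cycling Cd8+ cells. The 36 genes took 0.549% of UMIs in WT and 0.45% in cKO, and 16 of them were at least 20% lower in cKO, where 6.29% of all genes were. Their median fold was -0.31, against 0.01 for all genes. Noc2l stood at 110 and 74.7 CPM, Bop1 at 55.3 and 37.6 and Wdr75 at 44.4 and 30.3, all of which act in nucleolar steps. Riok1, a kinase of late small subunit maturation, stood at 65.2 and 67.1. In mature conventional cells 5 of the 18 with enough counts were lower (9.19% of all genes) and 1 higher, with a median fold of -0.13. In Foxp3+ cells 4 of 20 were lower (9.44%), with a median of -0.02. In the 6 other stages at most 2 were lower, and 2 were higher in DP Trac+ and 3 in agonist-signalled cells. The median there was -0.13 in cycling Cd8- cells, -0.12 in DN3 cells and between -0.03 and 0.01 in the rest. The ribosomal protein genes themselves had a median fold of -0.05 in cycling Cd8+ cells, with 26 of 83 above 0. The gate held 201 WT and 198 cKO cells with medians of 18479 and 16264 UMIs, and the part of that depth gap, or of the mix of cells within the gate, was not tested. Of the 14 RNA polymerase I genes, 13 had enough counts in that gate, with a median fold of -0.11. At least 20% lower were 3 of them (6.29% of all genes), among them Ubtf, the rDNA transcription factor, at 167 and 119.

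Of 27 MYC and mTORC1 regulators, 19 had enough counts in cycling Cd8+ cells, where 2 were at least 25% higher in cKO (5.65% of all genes) and 3 at least 20% lower (6.29%), with a median fold of -0.04. The 3 lower were Eif4ebp1 (26.9 and 12.4 CPM), Myc (66.1 and 42.1, from 280 and 150 UMIs) and Akt1s1 (23.6 and 14.6). The 2 higher were Ddit4 (21 and 62.7) and Mxd4 (55.5 and 83.7). As background, Ddit4 and Akt1s1 encode inhibitors of mTORC1, Eif4ebp1 a repressor of cap-dependent translation that mTORC1 inactivates, and Mxd4 an antagonist of MYC. Ddit4 was higher in cKO in each of the 9 stages, with 17.2 and 32.7 in DN3, 73 and 121 in DP Trac+ and 30.4 and 44.2 in Foxp3+ cells. Myc stood at 139 and 136 in DN3, 17.6 and 20.1 in DP Trac+ and 64.7 and 73.5 in Foxp3+ cells. In agonist-signalled cells Myc stood at 76.3 and 54.6, and in mature conventional cells at 39 and 24.9 (41 and 26 UMIs). The 78 mitochondrial ribosomal protein genes, a separate ribosome, took 0.66% and 0.64% of UMIs in DN3 and 0.598% and 0.59% in DP Trac+ cells, and their median folds between libraries ran from -0.10 to 0.00. The lower share in DP cells was thus much smaller for them than for the cytosolic set.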

How the data were processed

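The authors deposited raw UMI counts per gene and barcode for 1 WT and 1 cKO library. The submitters' processing notes name CASAVA 1.8, Cell Ranger 6.1.1 and Seurat 4.0.3; the build used for counting was not stated there. Barcodes with at least 500 genes, 1000 UMIs and at most 10% mitochondrial UMIs were kept (7137 WT, 7501 cKO). Scrublet in scanpy 1.11.5 (expected rate 0.06) set a threshold of 0.29 in WT and of 0.638 in cKO, where it called 1 doublet, so 0.29 was used for both and removed 148 and 129 barcodes. The files held 7852 and 8461 barcodes with 89370968 and 76668166 UMIs.

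Gates used marker counts in a fixed order. Their thresholds were set after markers and depths, but not ribosomal protein values, had been seen, and members, lists and named genes were chosen with earlier results of these data known. Cycling cells had at least 20 cycle-gene UMIs per 10000; Cd8- meant under 2 and Cd8+ at least 5 Cd8a and Cd8b1 UMIs on that scale. Agonist-signalled cells held at least 3 of 8 response genes. UMIs were summed per gate and library and scaled to CPM. Folds are log2 of (CPM + 5), for genes with at least 100 UMIs. The code was tested on simulated data. Named were, with their partners: the 5 highest and 5 lowest WT levels; in each stage the 3 highest and 3 lowest folds among genes with at least 200 UMIs; the 8 genes varying most over stages; 5 genes each way with 1 sign in all stages; the paralogs; and the extreme companions. Coding lengths come from GENCODE vM21 and start windows from RefSeq. Python 3.11.15, numpy 2.4.6, scipy 1.17.1 and pandas 2.3.3 were used. Some genes that these rules name are not reported here.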

Additional observations from a re-analysis of the deposited data

How the results depend on the processing

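No paired analysis was possible because each genotype has 1 library and the labels carry no replicate numbers. For the same reason no replicate could be left out. The DP Trac+ to DN3 share ratio (0.536 in WT, 0.528 in cKO) was 0.527 in cKO with the looser cell filter, 0.517 and 0.514 with the stricter one, 0.565 and 0.548 with doublets kept, and 0.531 and 0.519 with gates read after thinning to 2000 UMIs. It was 0.671 and 0.647 in cells of 3000 to 6000 UMIs, 0.742 and 0.647 in cells of 4000 to 5000 UMIs, 0.514 and 0.504 as a mean over cells, and 0.547 and 0.539 without mitochondrial genes and Malat1 in the denominator.

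The cKO to WT share ratio moved as follows. In early DN cells it was 1.067 (stricter filter), 1.108 (thinned gates), 1.063 (no mitochondrial genes or Malat1), 1.107 (ribosomal protein genes out of the denominator) and 1.049 (no coding length under 300 bases). In DN3 cells these values were 1.069, 1.055, 1.048, 1.078 and 1.028, with 1.086 at 3000 to 6000 UMIs. In DP Trac+ cells they were 1.062, 1.030, 1.033, 1.045 and 1.010, with 1.022 (doublets kept), 1.047 (3000 to 6000 UMIs) and 1.033 (mean over cells). In Foxp3+ cells they were 1.031 (stricter), 1.035 (thinned), 1.075 (3000 to 6000 UMIs), 1.033 (mean over cells), 1.023 (ribosomal protein genes out of the denominator) and 0.987 (no short genes). Over its alternatives the ratio ran from 1.023 to 1.069 in cycling Cd8-, 0.967 to 1.003 in cycling Cd8+, 0.954 to 1.104 in DP Trac-, 0.933 to 1.080 in agonist-signalled and 0.981 to 1.021 in mature conventional cells, so the last 4 fell on both sides of 1.

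The 29 higher gene and stage pairs were 19 when scaled to the ribosomal protein sum, and the 1 lower pair was 0 with doublets kept and at 3000 to 6000 UMIs, and 3 with thinned gates. The Rps27l ratio between stages in WT was 4.933 with doublets kept. That of Rpl22l1 was 2.017 in WT and 1.737 in cKO with doublets kept, and in cKO 1.959 (stricter filter) and 1.924 (thinned gates). The median folds of Rps29, Rps28, Rpl38, Rps27 and Rpl37a stayed between 0.21 and 0.43 over 10 alternatives each, and those of Rpl13a, Rpl5, Rps15, Rpl23a and Rpl17 between -0.26 and -0.03. The cause of these moves was not tested. Leaving out the short genes and the shared barcodes, and the window of 4000 to 5000 UMIs, were added after the data were seen. In early DN and both cycling gates fewer than 20 cells per library had 3000 to 6000 UMIs. At that depth the counts of pairs (30 higher and 0 lower) and the median folds therefore cover 6 stages, and the range over stages and the paralog ratios have no value.

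The main limits are the single library per genotype, the lower depth of the cKO library and of DP cells, stages defined by RNA alone, and 3′ ends shared between gene copies. The member with the lowest counts, Rps19bp1, has 40 UMIs in WT mature conventional cells.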

Other observations

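Post-selection cells (Cd5 and Cd69 with Trac) numbered 67 in WT and 114 in cKO and were left out of the folds. Their summed ribosomal protein share was 24.7% in WT and 23.3% in cKO, while the median cell had 17.2% and 17.1%, near the DP cells. The upper quartile was 25.2% and 20%. In this gate Rpl22l1 gave 494 UMIs per 1000 Rpl22 UMIs in WT (431 to 565) and 435 in cKO (387 to 488), above the 268 and 310 of DP Trac+ cells. Rpl36al gave 394 and 437 per 1000 Rpl36a UMIs, below the 690 and 659 of DP Trac+ cells.

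B cells (37 in WT and 15 in cKO) had summed shares of 23.9% and 27.8%. Cycling cells with intermediate Cd8 or with Trac or Foxp3 (430 and 377) had 30.2% and 31.2%, with medians of 10582 and 10700 ribosomal protein UMIs per cell, more than any other gate. Cells in no gate (719 and 902) had 27.7% and 27.9%.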
